A study of Arabidopsis thaliana with 12 samples.

Results

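White and green rosette leaves of melinoe, an Arabidopsis thaliana line with a chemically induced change in AtFMN/FHY (AT4G21470), were compared gene by gene. The members are the 6 libraries in the deposited read count columns marked W and G, 3 of white and 3 of green leaves, out of 12 in the series. Joined on the gene identifier, with a gene absent from a table set to 0, these columns list 24808 of the 25169 genes of the series. White leaves (melinoe, labelled White), green leaves (melinoe, labelled Green) and the mixed green-white leaves (melinoe, labelled GreenWhite) all carry the mutation, so genotype does not separate white from green. Wild-type leaves are Col-0, without that mutation. Green-white and wild-type leaves, with 3 libraries each, are given only as context.

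The labels name EMS as the mutagen and describe 1 mutant line, so any other change that EMS left in that line would be present in all melinoe libraries. Plants were stratified for 48 h, raised for 2 weeks on medium with 1% sucrose and moved to soil at 22 °C, with 16 h of light at 75 µmol and 8 h of darkness. The protocols call the leaf classes stages and describe them as green, pale green and chlorotic. They give no leaf age and no time of harvest, so leaf age and loss of greening cannot be told apart. The labels speak of biological replicates without saying whether each was a separate plant or a pool, and p-values therefore measure the spread between these libraries.

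FMN and FAD are flavin cofactors that carry electrons in many enzymes of respiration, photosynthesis and amino acid breakdown. Plants make riboflavin in plastids, a kinase turns it into FMN, and AtFMN/FHY joins that kinase to a hydrolase that takes FMN apart again. Greening of a leaf depends on nuclear genes for antenna proteins, photosystem subunits and pigment enzymes, and on plastid genes that are read by a nuclear-encoded and a plastid-encoded RNA polymerase. A leaf that cannot photosynthesise lives on sugar imported from other leaves.

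White leaves had lower mRNA levels of every antenna and photosystem gene examined and of nearly all Calvin cycle and photorespiration genes. They had higher levels of most genes for the plastid transcription machinery, the plastid protein import apparatus, sugar-starvation responses and senescence. All sulfur assimilation genes tested, nearly all glucosinolate synthesis genes and most cold and abscisic acid response genes were lower in white leaves. RAB18 and RD29B, of the abscisic acid response, were higher. Defensin genes of the PDF1.2 kind and a small family of iron-deficiency bHLH factors were also lower, and ferritin genes were higher. Seed storage protein mRNAs, which were at or near 0 in green libraries, were present at low levels in all white libraries.

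Across the 19424 genes tested by edgeR's quasi-likelihood test, 14094 (72.6%) differed between white and green leaves at a Benjamini-Hochberg adjusted p below 0.05. Of these, 7044 genes (36.3%) were higher and 7050 (36.3%) lower in white leaves. At least a 2-fold difference was found for 3172 genes (16.3%), 1439 of them higher (7.41%) and 1733 lower (8.92%). Values of the 3 white and the 3 green libraries did not overlap for 14373 genes (74%), with white above green for 37.1% and below it for 36.9%, so a share of list members near these percentages is the background and not a property of the list. The median log2 fold change over all genes tested was -0.01. Expression is given as CPM, counts per 1000000 scaled by TMM factors, and log2 fold changes are white over green, followed by ± and the standard error of the fit. The equal split depends on the scaling: with library totals alone the median moved up by 0.28 log2 units and 73.5% of calls were higher, against an even split with TMM factors.

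Depth was even, with 25795702 to 26741794 counts per library in the 6 libraries. The 100 most abundant genes took 17.6 to 17.8% of counts in white and 28.9 to 30.0% in green libraries. At least 1 count was present for 22350 to 22423 genes in white and 21670 to 21721 in green libraries, and the TMM factors followed the groups, 1.11 to 1.12 in white and 0.913 to 0.929 in green. In bulk RNA of this kind, fewer cells of a type and less RNA per cell cannot be told apart. Of the 3172 genes with at least a 2-fold difference, 2707 (85.3%) had a mean in green-white leaves that lay between the white and the green mean. These genes were selected for a wide gap between white and green, which itself favours a mean inside it. The share over all genes tested was not taken, so no conclusion is drawn from this value.

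**Figure D1:**
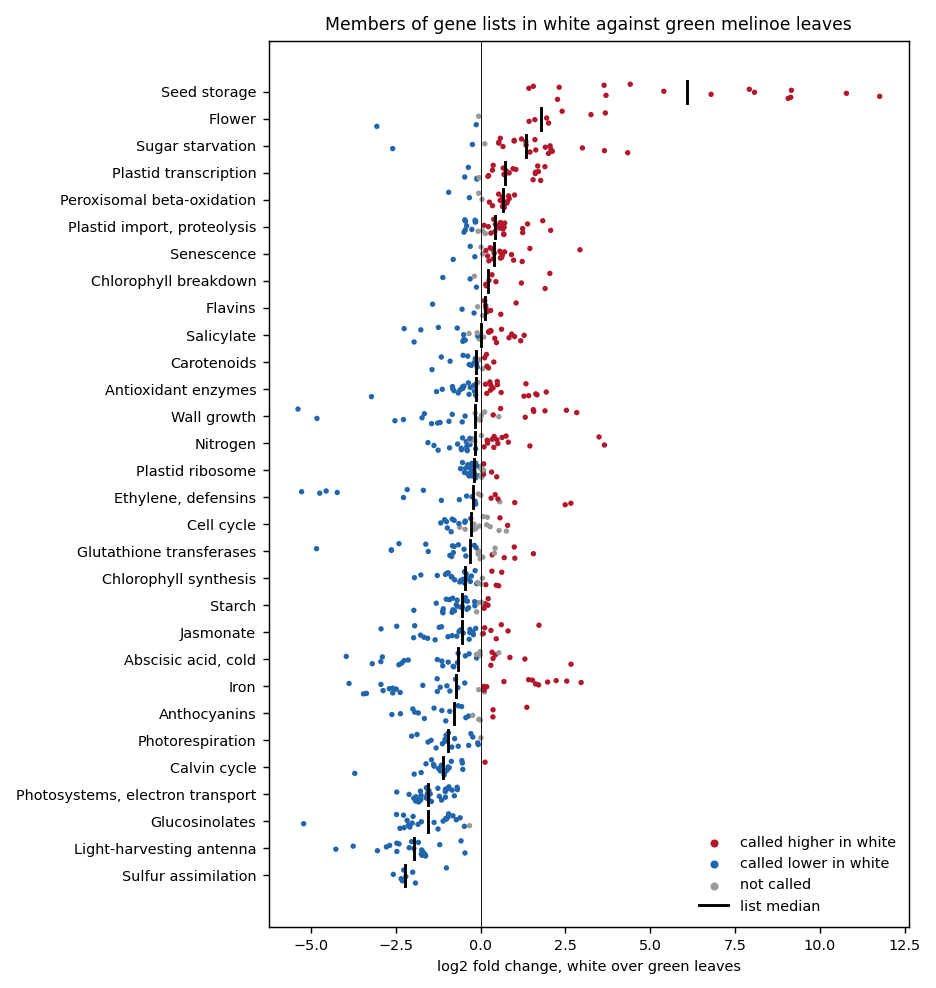
Each point is a gene, placed by its log2 fold change (white over green leaves, horizontal axis) in the gene list named on the vertical axis. Red points were higher and blue points lower in white leaves by edgeR's quasi-likelihood test, grey points did not pass it, and the black bar is the list median. Seed storage genes lie farthest to the right with a fitted median of 6.10. It is 4.05 with the genes absent from green libraries placed at their lower bound. Sulfur assimilation genes lie farthest to the left with a median of -2.24, against -0.01 over all genes tested. Library totals alone would move most points to the right by about 0.28. This takes the carotenoid, nitrogen, plastid ribosome, antioxidant, ethylene and defensin, and wall growth medians across 0.

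All 21 antenna genes were lower in white leaves, and their values did not overlap with those of green leaves (median log2 fold change -1.97). Together they reached 33429 to 34793 CPM in white libraries and 126394 to 136226 CPM in green libraries. LHCA3, an antenna protein of photosystem I, had 2155, 2173 and 2137 CPM in white leaves, against 6959, 6846 and 6288 CPM in green leaves. All white values lay well below the lowest green value (log2 fold change -1.64 ± 0.03, adjusted p = 7.0e-30). LHCA1, which binds next to it on photosystem I, had 2212, 2254 and 2173 CPM in white leaves, against 6942, 7038 and 6489 CPM in green leaves, a clear separation again (log2 fold change -1.62 ± 0.03, adjusted p = 2.5e-30). LHCB5, the monomeric CP26 antenna of photosystem II, had 1941, 1949 and 1884 CPM in white leaves, against 7335, 6779 and 6487 CPM in green leaves, and no white library came near the green ones (log2 fold change -1.83 ± 0.03, adjusted p = 1.8e-30).

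Lowest of the list was LHB1B1, a gene of the trimeric photosystem II antenna, with a log2 fold change of -4.27 ± 0.03. Its counts include fractions, as do those of its near-identical copies CAB1, CAB2, CAB3 and LHB1B2, so reads may have been shared out between copies and single values of these genes are uncertain. LHCB3 (-2.68 ± 0.03) and LHCB6 (-2.04 ± 0.03), which are not copies of one another and belong to the trimeric and monomeric antenna of photosystem II, overlap a neighbouring gene in the annotation. The least affected members were rare antenna proteins: Lhca5, which joins photosystem I to the NDH complex, had 144 ± 4.09 CPM in white and 199 ± 0.979 CPM in green leaves (SD, n = 3 each, log2 fold change -0.46 ± 0.03). LHCB7 differed by -0.58 ± 0.06. Lhca6, which also joins photosystem I to NDH, lay closer to the main antenna genes at -1.69 ± 0.03.

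Photosystem, electron transport and ATP synthase subunits were lower for 33 of 33 genes (median -1.54), and summed to 22340 to 22833 CPM in white and 61731 to 65605 CPM in green libraries. NPQ4, the PsbS protein that lets photosystem II dissipate excess light, had the largest difference. Its values were 319, 320.3 and 308 CPM in white leaves, against 1839, 1742 and 1676 CPM in green leaves (log2 fold change -2.47 ± 0.03, adjusted p = 6.1e-33), and every white library held less than every green one. PSBQ-2 of the oxygen-evolving complex (-2.11 ± 0.03), PSAK of photosystem I (-1.97 ± 0.04) and PSAO, another photosystem I subunit (-1.91 ± 0.03), followed. PSAL, part of the photosystem I surface where trimeric antenna docks, had 1528, 1543 and 1558 CPM in white and 4730, 4786 and 4602 CPM in green leaves, without overlap (log2 fold change -1.61 ± 0.03). The plastocyanin gene DRT112 (-1.53 ± 0.03), the ATP synthase subunit ATPD (-1.60 ± 0.03) and the Rieske protein PETC (-1.04 ± 0.03) were lower too. At the small end stood PGR5, a factor of cyclic electron flow (-0.69 ± 0.04), and the leaf ferredoxin FED A (-0.69 ± 0.03). FNR2, the FAD enzyme that passes electrons to NADPH, had 729.7 ± 13.4 CPM in white and 1417 ± 20.1 CPM in green leaves (SD, n = 3 each, log2 fold change -0.96 ± 0.03).

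The 8 one-helix and stress-enhanced relatives of the antenna were all lower (median -0.63). OHP2, a scaffold in photosystem assembly, differed by -0.66 ± 0.04. ELIP1 and ELIP2, early light-induced proteins of high-light stress, were low in all libraries, and differed by -0.51 ± 0.12 and -0.60 ± 0.17.

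Calvin cycle genes were lower for 19 of 20 members (median -1.12), and the list summed to 25325 to 25596 CPM in white and 53023 to 56209 CPM in green libraries. SBPASE, sedoheptulose bisphosphatase, had 219.9, 211 and 218 CPM in white leaves, against 650.5, 683 and 650.0 CPM in green leaves, separated by more than the range within either group (log2 fold change -1.61 ± 0.03, adjusted p = 1.4e-29). CP12-2, a small protein that holds PRK and GAPDH inactive in the dark, differed by -1.45 ± 0.04 and FBA1, a plastid aldolase, by -1.37 ± 0.03. Rubisco small subunit genes RBCS2B (-3.71 ± 0.04), RBCS1B (-1.96 ± 0.04), RBCS3B (-1.75 ± 0.03) and RBCS1A (-1.08 ± 0.03) were all lower, with fractional counts that leave the split between copies uncertain. The exception was RPE, ribulose phosphate epimerase, which was slightly higher at 621 ± 4.88 CPM in white and 568 ± 13.6 CPM in green leaves (SD, n = 3 each, log2 fold change 0.13 ± 0.03, adjusted p = 5.4e-05).

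In photorespiration, which recovers carbon from the oxygenation product of rubisco, 18 of 19 genes were lower and none was higher (median -0.95). GS2, the plastid glutamine synthetase that refixes the released ammonium, had 350.4, 348 and 342 CPM in white leaves, against 1434, 1430 and 1402 CPM in green leaves, with no overlap (log2 fold change -2.04 ± 0.03, adjusted p = 3.5e-33). DiT1, the plastid 2-oxoglutarate transporter of the same step, differed by -1.88 ± 0.03. AT1G11860, annotated as a glycine cleavage T-protein family member, differed by -1.55 ± 0.03, and SHM1, the mitochondrial serine hydroxymethyltransferase, by -1.05 ± 0.02. The FMN enzymes of this pathway, the glycolate oxidases GOX1 (-0.85 ± 0.03) and GOX2 (-0.66 ± 0.03), were lower by less than the list median, and their counts hold fractions.

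Among regulators of greening, 5 genes were higher and 7 lower of 14 tested (median -0.13, which becomes 0.15 with library totals alone). GLK1, listed as GPRI1 (AT2G20570), is a transcription factor that switches on antenna and chlorophyll synthesis genes. It had 20.2, 20.8 and 21.0 CPM in white leaves, against 124, 120.3 and 118 CPM in green leaves. All white values were below the lowest green value by a wide margin (log2 fold change -2.55 ± 0.04, adjusted p = 9.1e-31). Its partner GLK2 had 45.2, 48.8 and 47.9 CPM in white leaves, against 179.8, 184 and 174 CPM in green leaves, likewise without overlap (log2 fold change -1.92 ± 0.04, adjusted p = 3.7e-29). PIF4 (-0.95 ± 0.03) and PIF3 (-0.94 ± 0.08), phytochrome-interacting factors that repress light responses, were also lower. HY5, a bZIP factor that promotes light responses, was higher, with 12.1, 11.5 and 12.5 CPM in white and 4.72, 4.22 and 4.14 CPM in green leaves, and the groups did not overlap (log2 fold change 1.46 ± 0.09, adjusted p = 9.6e-16). CGA1, a GATA factor that raises chloroplast number, was higher by 0.66 ± 0.07 and LZF1, a B-box protein of light signalling, by 0.56 ± 0.04.

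Enzymes of chlorophyll synthesis were lower for 21 of 29 genes and higher for 5 (median -0.48). PORB, a protochlorophyllide oxidoreductase, had 190.2, 195 and 188 CPM in white leaves, against 662, 654 and 632 CPM in green leaves, although it overlaps another annotated gene. White and green libraries did not overlap (log2 fold change -1.76 ± 0.03, adjusted p = 1.6e-30). GUN4, which activates magnesium chelatase, differed by -1.95 ± 0.08 with fractional counts, and CRD1, an oxidative cyclase subunit, by -0.87 ± 0.02. GUN5, the chelatase subunit that binds porphyrin, had 988 ± 6.92 CPM in white and 1681 ± 87.1 CPM in green leaves (SD, n = 3 each, log2 fold change -0.77 ± 0.03). Going the other way, HEMA1, glutamyl-tRNA reductase at the entry to the pathway, had 294, 307 and 292 CPM in white leaves, against 203, 203 and 213 CPM in green leaves and was higher without overlap (log2 fold change 0.53 ± 0.03, adjusted p = 1.5e-16). FC1, a ferrochelatase that leads to haem, was higher by 0.62 ± 0.03 and FLU, which restrains HEMA1 in the dark, by 0.33 ± 0.04. The other ferrochelatase gene, FC2, was lower, at -0.48 ± 0.04.

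Of 12 chlorophyll breakdown genes, 8 were higher and 3 lower (median 0.20). NYC1, chlorophyll b reductase, had 309, 298 and 310.1 CPM in white leaves, against 81.7, 80.3 and 84.0 CPM in green leaves, and its lowest white library was far above its highest green one (log2 fold change 1.90 ± 0.03, adjusted p = 8.4e-31). MES16, which demethylates chlorophyll catabolites, had 127, 129.7 and 129.5 CPM in white and 30.9, 32.4 and 30.8 CPM in green leaves, again fully separated (log2 fold change 2.04 ± 0.04, adjusted p = 4.0e-29). SGR2, a relative of the magnesium dechelatase, was higher by 1.20 ± 0.08, and PPH, pheophytinase, by 0.45 ± 0.03. CLH1, a chlorophyllase, was lower, at -1.11 ± 0.03.

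Carotenoid genes were split, with 5 higher and 12 lower of 19 (median -0.13), but 12 higher and 5 lower with library totals alone (median 0.15). PSY, phytoene synthase, the first step, had 90.0, 91.3 and 88.5 CPM in white and 247, 239 and 244 CPM in green leaves, without overlap (log2 fold change -1.44 ± 0.03), and it overlaps a neighbour in the annotation. NCED4, a carotenoid-cleaving dioxygenase, differed by -1.16 ± 0.03. BETA-OHASE 1, a carotene hydroxylase, was higher by 0.39 ± 0.04, while BETA-OHASE 2 was lower, at -0.90 ± 0.08. IM, the plastid terminal oxidase whose loss gives variegated leaves, differed little, with 82.0 ± 2.01 CPM in white and 72.9 ± 2.41 CPM in green leaves (SD, n = 3 each, log2 fold change 0.17 ± 0.04, adjusted p = 3.5e-04).

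Nuclear genes for the machinery that transcribes plastid genes, which are themselves not analysed here, moved opposite to the photosynthesis genes. Of 23 genes tested, 18 were higher and 4 lower (median 0.71), and the list summed to 2233 CPM on average in white and 1483 CPM in green leaves. FLN2, a fructokinase-like protein bound to the plastid-encoded polymerase, had 91.3, 89.1 and 91.0 CPM in white leaves, against 25.5, 22.9 and 24.6 CPM in green leaves. White libraries all exceeded green ones several times over (log2 fold change 1.89 ± 0.04, adjusted p = 8.7e-27). Its relative FLN1 had 118, 124 and 124 CPM in white and 36.5, 40.2 and 36.1 CPM in green leaves, also without overlap (log2 fold change 1.70 ± 0.04, adjusted p = 1.4e-26). PDE312, another polymerase-associated protein, had 134, 134 and 128 CPM in white and 42.1, 42.0 and 45.5 CPM in green leaves and PTAC12, a phytochrome signalling protein that also sits in the polymerase complex, 109.8, 113 and 110.0 CPM in white and 36.1, 36.4 and 36.0 CPM in green leaves. Both were separated between the leaf classes, with log2 fold changes of 1.61 ± 0.04 and 1.62 ± 0.04, though PTAC12 overlaps another gene.

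SCA3, the nuclear-encoded plastid RNA polymerase, had 142, 138 and 141 CPM in white leaves, against 38.2, 43.1 and 42.0 CPM in green leaves, with fractional counts in some libraries. White values were above all green values (log2 fold change 1.77 ± 0.04, adjusted p = 8.1e-27). AT5G15700, annotated only as a member of the DNA/RNA polymerase superfamily, had 31.0 ± 1.38 CPM in white and 10.6 ± 1.58 CPM in green leaves (SD, n = 3 each, log2 fold change 1.54 ± 0.07). TRX z, a thioredoxin of the complex, was higher by 0.95 ± 0.05, and the plastid iron superoxide dismutases FSD2 and FSD3, also polymerase-associated, by 1.04 ± 0.07 and 0.84 ± 0.06. Of the sigma factors, which direct the plastid-encoded polymerase to promoters, SIGE was higher by 0.21 ± 0.04 and SIGF by 0.23 ± 0.03, and SIG4 was lower, at -0.47 ± 0.05. GUN1, a plastid protein of retrograde signalling, was higher by 0.37 ± 0.03.

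**Figure D2:**
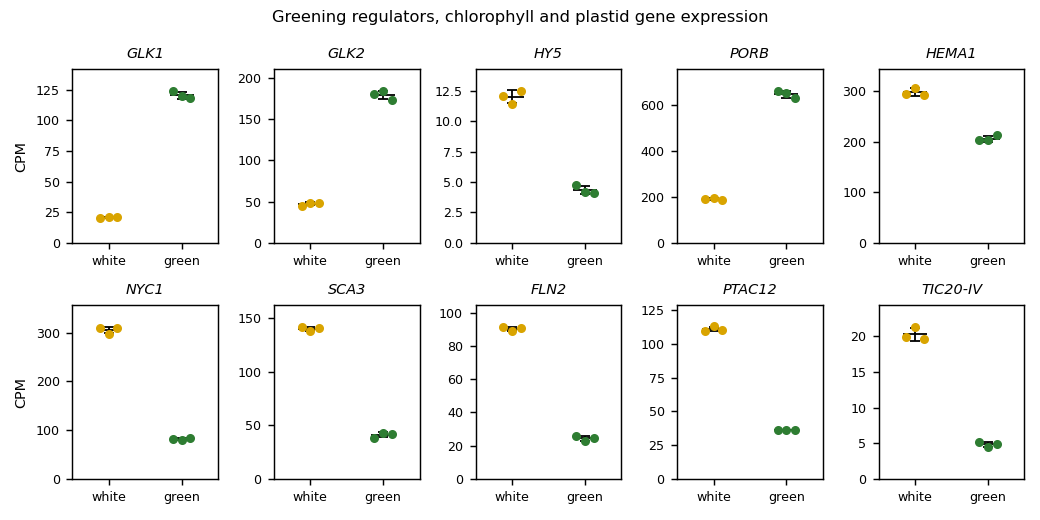
Each panel gives the CPM of a gene in the 3 white and the 3 green libraries (points, white left and green right) with the mean and SD (horizontal line and whiskers) on a vertical axis that starts at 0. GLK1, GLK2 and PORB were lower in white leaves, and HY5, HEMA1, NYC1, SCA3, FLN2, PTAC12 and TIC20-IV were higher, with no overlap between white and green libraries in any panel.

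Genes for plastid protein import, folding and proteolysis were higher for 22 of 34 and lower for 9 (median 0.42). Tic20-IV, an inner-envelope translocon protein, had 19.9, 21.3 and 19.7 CPM in white leaves, against 5.22, 4.50 and 4.84 CPM in green leaves, with all white values above all green ones (log2 fold change 2.06 ± 0.08, adjusted p = 4.1e-20). CR88, the plastid HSP90 chaperone, had 462, 474 and 456 CPM in white and 173, 181 and 180.3 CPM in green leaves, fully separated (log2 fold change 1.38 ± 0.03, adjusted p = 2.5e-27). TIC110, the inner-envelope scaffold, had 297 ± 2.78 CPM in white and 126 ± 5.84 CPM in green leaves, and TOC33, a receptor GTPase at the outer envelope, 104 ± 1.05 CPM in white and 44.2 ± 3.75 CPM in green leaves (SD, n = 3 each). Their log2 fold changes were 1.24 ± 0.03 and 1.24 ± 0.04. TOC34, the other small receptor, was lower, at -0.49 ± 0.07. Among proteases, VAR1, an FtsH subunit that repairs photosystem II, was lower, at -0.45 ± 0.03 and DEG1, a lumen protease, at -0.47 ± 0.03, while CLPC1, the stromal Clp chaperone, was higher by 0.23 ± 0.03. FTSH6 was higher by 1.83 ± 0.39, at a level below 1 CPM.

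Plastid ribosomal protein genes had 5 higher and 24 lower of 36, and 19 higher and 7 lower with library totals alone. Their median was -0.19, which turns to 0.08 with library totals alone. RPS9 was the highest at 0.47 ± 0.03 and PRPL35 among the lowest at -0.54 ± 0.03.

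Starch genes were lower for 23 of 31 and higher for 5 (median -0.54). GBSS1, the granule-bound synthase that makes amylose, had 17.1, 17.7 and 15.7 CPM in white leaves, against 63.3, 67.8 and 67.2 CPM in green leaves, without overlap (log2 fold change -1.97 ± 0.05, adjusted p = 1.7e-26). ADG1, the small subunit of ADP-glucose pyrophosphorylase, had 182, 172 and 172 CPM in white and 369, 383 and 384 CPM in green leaves, again separated (log2 fold change -1.11 ± 0.03, adjusted p = 9.2e-25). BAM5, a beta-amylase outside the plastid, differed by -1.31 ± 0.07, and APE2, the triose phosphate exporter of the chloroplast, by -0.83 ± 0.02. GPT2, a glucose 6-phosphate importer of plastids, was slightly higher (0.22 ± 0.06), and so was PWD, a starch-phosphorylating dikinase (0.22 ± 0.04).

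Sugar transport and sucrose metabolism genes were higher for 16 of 30 and lower for 7 (median 0.28). Genes of sucrose export from the leaf were among the lower ones. SWEET11, which releases sucrose for phloem loading, had 110.2, 108 and 105 CPM in white leaves, against 272, 275 and 277 CPM in green leaves and did not overlap between leaf classes (log2 fold change -1.35 ± 0.03, adjusted p = 3.5e-27). SWEET12, which acts with it, differed by -1.25 ± 0.04, SUC2, the phloem loader, by -0.80 ± 0.03, and ATSPS4F, a sucrose phosphate synthase, by -1.501 ± 0.03. Higher members included genes of sugar uptake and sucrose cleavage. SUS1, a sucrose synthase, had 118, 115 and 116 CPM in white leaves, against 30.2, 30.3 and 31.4 CPM in green leaves, with white above green in every library (log2 fold change 1.93 ± 0.04, adjusted p = 1.4e-28). TMT1, a vacuolar sugar importer, was higher by 1.55 ± 0.04, ATBETAFRUCT4, a vacuolar invertase, by 1.38 ± 0.03, SWEET2, a vacuolar glucose carrier, by 1.52 ± 0.06, and MSS1, the hexose importer STP13, by 0.78 ± 0.03. SUC7, annotated as a sucrose-proton symporter, had 17.7, 17.8 and 15.5 CPM in white and 1.73, 1.31 and 1.64 CPM in green leaves (log2 fold change 3.44 ± 0.11, adjusted p = 4.1e-23), low but separate.

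Sugar-starvation genes, many of them first found as dark-induced, were higher for 20 of 23 and lower for 2 (median 1.34). DIN2, a beta-glucosidase, had 226, 232 and 227 CPM in white leaves, against 11.3, 11.3 and 11.4 CPM in green leaves. White libraries lay far above green ones, with no overlap (log2 fold change 4.33 ± 0.05, adjusted p = 1.1e-35). ASN1, the asparagine synthetase induced by darkness, had 858, 844 and 839 CPM in white leaves, against 65.7, 69.1 and 67.9 CPM in green leaves, and the lowest white library exceeded the highest green one many times (log2 fold change 3.65 ± 0.03, adjusted p = 1.2e-37). BCAT-2, a branched-chain aminotransferase, had 84.2, 85.5 and 88.0 CPM in white and 10.6, 10.2 and 11.4 CPM in green leaves (log2 fold change 2.998 ± 0.05, adjusted p = 3.3e-30), separated in the same way although its counts hold fractions. DIN10, a raffinose synthase homologue, stood at 1866 ± 24.2 CPM in white and 444 ± 12.4 CPM in green leaves, and SEN1, a dark- and age-induced gene, at 211 ± 11.0 CPM in white and 52.8 ± 4.44 CPM in green leaves (SD, n = 3 each, log2 fold changes 2.07 ± 0.03 and 2.00 ± 0.04).

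FAD-dependent steps of branched-chain amino acid breakdown were among these genes. IVD, isovaleryl-CoA dehydrogenase, which carries FAD, had 135, 138 and 143 CPM in white leaves, against 36.1, 31.8 and 32.8 CPM in green leaves, without overlap (log2 fold change 2.05 ± 0.04, adjusted p = 6.2e-28). ETFQO, which passes its electrons to ubiquinone, had 40.5 ± 1.35 CPM in white and 16.0 ± 0.753 CPM in green leaves (SD, n = 3 each, log2 fold change 1.34 ± 0.05). ETFALPHA, a subunit of the electron carrier between them, was slightly lower (-0.24 ± 0.07), a sign that turns to 0.03 with library totals alone, and the other subunit ETFBETA was not called (log2 fold change 0.12 ± 0.07, adjusted p = 0.12). MCCA and MCCB, subunits of methylcrotonyl-CoA carboxylase in leucine breakdown, were higher by 1.91 ± 0.04 and 0.66 ± 0.04, and DIN4, a branched-chain keto acid dehydrogenase subunit, by 2.11 ± 0.05. DIN11, annotated as a 2-oxoglutarate and iron dependent oxygenase, went the other way, with 14.8, 12.9 and 13.6 CPM in white and 81.4, 84.2 and 83.7 CPM in green leaves (log2 fold change -2.59 ± 0.05, adjusted p = 3.3e-29), every white library below every green one.

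The promoters of ASN1 and BCAT-2, strongly higher members of this list, are shown for the GATAAG and TATCCA motifs they hold. The 250 bases before the annotated start of ASN1 (chr3:17441432-17441681, minus strand) and BCAT-2 (chr1:3287837-3288086, plus strand) are given in the direction of the gene, from RefSeq TAIR10.1. Capitals mark GATAAG, on either strand, and TATCCA, which can share bases with it. GATAAG on either strand was present in 39.1% of promoters of sugar-starvation genes (9 of 23) and in 12.6% of promoters of all genes tested. TATCCA was present in 26.1% of promoters of sugar-starvation genes (6 of 23) and 14.4% of those of all genes tested. It was more frequent in lists that were lower in white leaves, at 38.1% for antenna (8 of 21) and 30.3% for photosystem genes (10 of 33). In all, 9 motifs were searched in each list, and only some are shown. In ASN1 the matches begin at -246 (read as CTTATC), -111 and -101, and in BCAT-2 at -100, counted from the annotated start. A match is a description of the letters and not a shown binding site.
ASN1: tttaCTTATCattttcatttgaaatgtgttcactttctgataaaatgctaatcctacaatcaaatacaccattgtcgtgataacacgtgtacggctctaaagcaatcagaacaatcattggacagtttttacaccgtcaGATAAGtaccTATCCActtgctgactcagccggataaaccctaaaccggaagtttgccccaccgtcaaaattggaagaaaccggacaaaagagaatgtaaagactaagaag
BCAT-2: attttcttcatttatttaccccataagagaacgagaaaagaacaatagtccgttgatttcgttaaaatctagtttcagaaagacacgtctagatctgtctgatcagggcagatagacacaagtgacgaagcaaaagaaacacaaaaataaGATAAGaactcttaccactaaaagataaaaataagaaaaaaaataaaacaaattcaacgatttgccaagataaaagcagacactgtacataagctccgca

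Nitrogen genes were divided, 14 higher and 15 lower of 33 (median -0.17, or 0.10 with library totals alone). ERD5, the mitochondrial proline dehydrogenase and an FAD enzyme, had 269.6, 269.8 and 262 CPM in white leaves, against 24.9, 23.9 and 22.6 CPM in green leaves, with no overlap (log2 fold change 3.49 ± 0.04, adjusted p = 2.5e-35). GDH2, a glutamate dehydrogenase subunit that releases ammonium, was higher by 1.45 ± 0.04, and P5CS2, of proline synthesis, by 0.63 ± 0.03. On the side of nitrate, NRT1.1, a nitrate transporter and sensor, had 21.0, 18.4 and 19.9 CPM in white and 58.2, 57.0 and 59.0 CPM in green leaves, fully separated (log2 fold change -1.55 ± 0.05, adjusted p = 8.2e-24), and NIA2, nitrate reductase, which carries FAD, haem and molybdenum, had 782, 807 and 781 CPM in white and 1814, 1967 and 1874 CPM in green leaves, also separated (log2 fold change -1.25 ± 0.03, adjusted p = 2.7e-27). Cytosolic glutamine synthetase genes GLN1;4 (-0.92 ± 0.08) and GLN1.3 (-0.57 ± 0.05) were lower.

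Peroxisomal beta-oxidation genes, which break down fatty acids, were higher for 14 of 18 and lower for 2 (median 0.65). CSY2, peroxisomal citrate synthase, differed by 1.00 ± 0.04, PKT3, a thiolase, by 0.84 ± 0.03, and the acyl-CoA oxidases ACX4, ACX2 and ACX1, which carry FAD, by 0.79 ± 0.03, 0.77 ± 0.04 and 0.67 ± 0.03. PMDH2, peroxisomal malate dehydrogenase, which also serves photorespiration, was lower, at -0.94 ± 0.03. ICL and MLS, the glyoxylate cycle enzymes of seedlings, stayed near 1 CPM or below in both leaf classes, with 1.11 ± 0.126 CPM in white and 0.711 ± 0.272 CPM in green leaves for ICL and 0.488 ± 0.105 CPM in white and 0.274 ± 0.144 CPM in green leaves for MLS (SD, n = 3 each), and their libraries overlapped between leaf classes.

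Autophagy genes were higher for 8 of 16 and lower for 5, a share close to the background. ATG8H, a member of the small ubiquitin-like family that coats autophagosomes, had 25.4, 26.0 and 26.6 CPM in white and 10.5, 10.3 and 10.4 CPM in green leaves and was separated (log2 fold change 1.32 ± 0.06, adjusted p = 5.5e-18). APG7, the enzyme that activates these proteins, was higher by 0.80 ± 0.06, and NBR1, a cargo receptor, by 0.51 ± 0.03. ATG8F was lower, at -0.43 ± 0.03.

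Senescence genes were higher for 18 of 23 and lower for 3 (median 0.40). SAG12, a cysteine protease seen in late senescence, had 4.53, 5.45 and 4.76 CPM in white leaves, against 0.575, 0.491 and 0.861 CPM in green leaves. All white values exceeded all green ones, at a low level (log2 fold change 2.93 ± 0.18, adjusted p = 1.7e-15), and the mean in wild-type leaves was 0.66 CPM. BCB, a blue copper protein, had 1896, 1879 and 1935 CPM in white leaves, against 731, 684 and 675 CPM in green leaves, without overlap (log2 fold change 1.45 ± 0.03, adjusted p = 1.4e-28). NAC6, the age regulator ORE1, was higher by 1.22 ± 0.05, and WRKY6, a transcription factor, by 0.91 ± 0.04. NAP, a NAC factor of chlorophyll loss, differed by only 0.24 ± 0.06, and SAG101, a lipase-like immune regulator, was not called (log2 fold change 0.01 ± 0.05, adjusted p = 0.81).

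Of 33 iron genes tested, 12 were higher and 19 lower, and members of the nicotianamine synthase and metal-nicotianamine transporter families went both ways. bHLH39, a transcription factor induced when iron is short, had 2.12, 2.06 and 1.77 CPM in white leaves, against 21.5, 19.9 and 20.1 CPM in green leaves, with no overlap (log2 fold change -3.37 ± 0.09, adjusted p = 1.5e-24). BHLH100 and BHLH101 of the same small family differed by -2.59 ± 0.07 and -2.37 ± 0.10, and bHLH38 by -3.45 ± 0.08 with fractional counts. PYE, a repressor in the same response, was lower, at -1.28 ± 0.07, and BTS, a ubiquitin ligase that restrains it, at -0.91 ± 0.04. AT1G47400, listed as an uncharacterized protein, differed by -2.49 ± 0.06. YSL2, a transporter of metal-nicotianamine, had 1.39, 1.29 and 1.77 CPM in white and 21.3, 21.8 and 22.8 CPM in green leaves (log2 fold change -3.88 ± 0.10, adjusted p = 5.7e-26), and NAS4, a nicotianamine synthase, had 1.95 ± 0.169 CPM in white and 15.0 ± 0.53 CPM in green leaves (SD, n = 3 each, log2 fold change -2.94 ± 0.09).

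The 4 ferritin genes were higher. FER1, ferritin, the plastid protein that stores iron, had 123, 120.4 and 120.3 CPM in white leaves, against 15.8, 16.3 and 14.6 CPM in green leaves. Every white library was above every green one (log2 fold change 2.96 ± 0.05, adjusted p = 1.9e-31). FER4 had 21.8, 20.8 and 21.7 CPM in white and 3.82, 4.01 and 3.24 CPM in green leaves, separated as well (log2 fold change 2.54 ± 0.08, adjusted p = 5.1e-23), and FER3 was higher by 0.68 ± 0.07. FER2, the seed ferritin, remained below 1 CPM (1.97 ± 0.45). Outside iron storage, NRAMP3, which moves iron out of the vacuole, YSL1, a metal-nicotianamine transporter, and NAS3, a nicotianamine synthase, were higher by 1.41 ± 0.07, 1.62 ± 0.06 and 1.71 ± 0.10.

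Superoxide dismutase genes moved in both directions, and FSD2 and FSD3, given with the plastid polymerase, were higher. FSD1, an iron superoxide dismutase, had 10.9, 9.72 and 10.5 CPM in white leaves, against 99.0, 98.9 and 92.5 CPM in green leaves, with no overlap (log2 fold change -3.22 ± 0.05, adjusted p = 5.7e-31). CSD2, the plastid copper/zinc enzyme, had 446, 429 and 450.0 CPM in white leaves, against 172, 161 and 164 CPM in green leaves, and white lay above green throughout (log2 fold change 1.41 ± 0.03, adjusted p = 9.8e-27). CSD1, the cytosolic one, differed by 1.28 ± 0.04, and CCS, the chaperone that loads them with copper, by 1.66 ± 0.03. COPT2, a copper importer of the cell surface, had 0.627, 0.384 and 0.521 CPM in white and 11.0, 10.8 and 9.68 CPM in green leaves and was among the 12 lowest named genes of the whole comparison (log2 fold change -4.34 ± 0.16, adjusted p = 3.4e-21). In Arabidopsis, FSD1 and COPT2 are known as genes of copper shortage and CSD1, CSD2 and CCS as genes of copper supply.

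**Figure D3:**
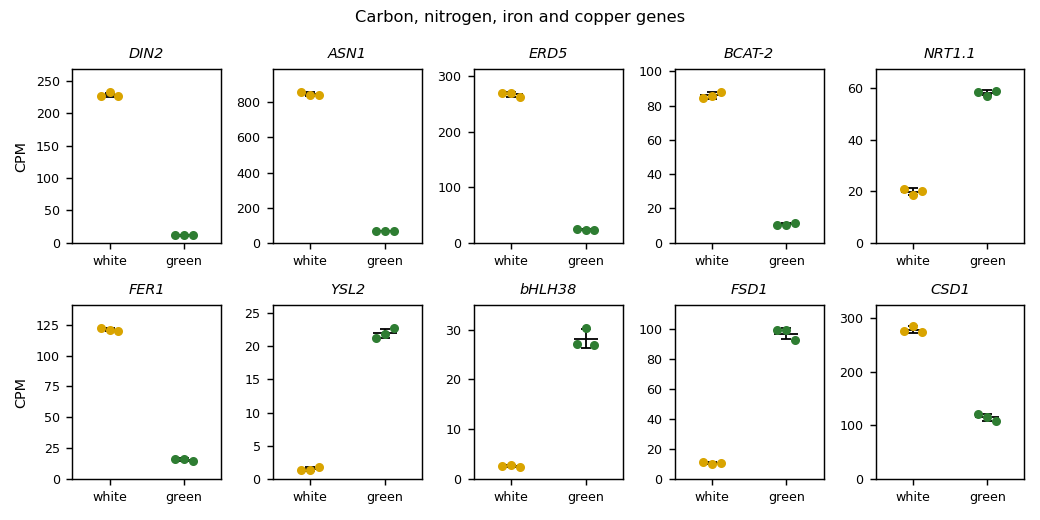
Each panel gives the CPM of a gene in the 3 white and the 3 green libraries (points, white left and green right) with the mean and SD (horizontal line and whiskers) on a vertical axis that starts at 0. DIN2, ASN1, ERD5, BCAT-2, FER1 and CSD1 were higher in white leaves, and NRT1.1, YSL2, bHLH38 and FSD1 were lower, with no overlap between white and green libraries.

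Other antioxidant genes were balanced, 15 higher and 18 lower of the 34 in the list with the dismutases (median sign dependent on scaling, 0.14 with library totals alone). SAPX, the stromal ascorbate peroxidase, had 61.3, 58.8 and 57.9 CPM in white and 15.2, 14.0 and 17.4 CPM in green leaves, without overlap (log2 fold change 1.93 ± 0.06, adjusted p = 7.8e-24), and TAPX, its thylakoid-bound relative, had 52.7, 52.8 and 49.9 CPM in white and 126, 128 and 129 CPM in green leaves, without overlap in the other direction (log2 fold change -1.30 ± 0.04, adjusted p = 7.0e-25). CAT1, a catalase of seeds and stressed tissue, was higher by 1.62 ± 0.03, and CAT3 was lower, at -0.66 ± 0.03. HPT1, of tocopherol synthesis, was higher by 1.33 ± 0.05. DHAR1, a dehydroascorbate reductase, was lower, at -1.13 ± 0.03 with fractional counts.

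All 8 sulfur assimilation and sulfur-shortage genes tested were lower, and the list of 9 summed to 105 CPM on average in white and 425 CPM in green leaves. APR1, APR2 and APR3 reduce activated sulfate, the step that commits sulfur to cysteine. APR3 had 21.0, 22.8 and 21.8 CPM in white leaves, against 113, 105 and 99.5 CPM in green leaves, APR1 16.5, 16.6 and 14.7 CPM in white and 95.9, 97.0 and 92.0 CPM in green leaves and APR2 33.9, 31.4 and 34.2 CPM in white and 134, 137 and 128 CPM in green leaves. White and green libraries did not overlap for any of the 3, with log2 fold changes of -2.27 ± 0.05, -2.58 ± 0.04 and -2.005 ± 0.04, and each overlaps a neighbour in the annotation. LSU2, a small protein induced by sulfur shortage, was lower, at -2.21 ± 0.10.

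Glucosinolate synthesis, which consumes reduced sulfur to make the defence compounds of the cabbage family, had 23 of 24 genes lower and none higher (median -1.56). IMS2, a chain-elongating methylthioalkylmalate synthase, had 0.209, 0.28 and 0.0348 CPM in white leaves, against 7.27, 7.25 and 5.45 CPM in green leaves, close to nothing in white leaves (log2 fold change -5.22 ± 0.24, adjusted p = 9.5e-19). MAM1, its tandem relative, had 98.6, 95.1 and 97.3 CPM in white and 358, 348 and 342 CPM in green leaves, without overlap (log2 fold change -1.85 ± 0.03, adjusted p = 1.8e-30). The regulators of the methionine-derived branch, MYB28 and MYB29, differed by -1.26 ± 0.05 and -2.38 ± 0.11, and MYB34, of the tryptophan-derived branch, by -2.09 ± 0.09. CYP79B3, the first enzyme of that branch, had 19.6 ± 0.345 CPM in white and 88.2 ± 3.39 CPM in green leaves (SD, n = 3 each, log2 fold change -2.17 ± 0.04), and CYP83A1, of the methionine branch, -1.75 ± 0.03 on the log2 scale. FMO GS-OX1 and FMO GS-OX3, flavin monooxygenases that oxidise the side chain, were lower, at -2.27 ± 0.06 and -2.48 ± 0.08. Of the myrosinases that cut glucosinolates, TGG1 was lower (-0.35 ± 0.03) and TGG2 higher (1.05 ± 0.03). PAD3, the last enzyme of the indole phytoalexin camalexin, was lower, at -1.37 ± 0.04.

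Jasmonate genes were lower for 22 of 30 and higher for 7 (median -0.55). Among synthesis genes, AOS, allene oxide synthase, had 299, 302 and 301 CPM in white leaves, against 889, 903 and 874 CPM in green leaves, without overlap (log2 fold change -1.56 ± 0.03, adjusted p = 3.2e-30), and LOX2, the plastid lipoxygenase before it, differed by -1.34 ± 0.03. AOC1 and AOC2, allene oxide cyclases, differed by -1.98 ± 0.03 and -1.67 ± 0.04 with fractional counts, OPR3, an FMN enzyme and the peroxisomal reductase of the pathway, by -0.84 ± 0.03, and JAR1, which joins jasmonate to isoleucine, by -1.77 ± 0.04. CYP94B1, which inactivates the conjugate, had 2.30, 3.15 and 2.26 CPM in white and 20.8, 18.9 and 19.3 CPM in green leaves, again separated (log2 fold change -2.94 ± 0.09, adjusted p = 4.6e-23). Higher in white leaves were VSP1, a vegetative storage protein (1.72 ± 0.05), JAZ7, a repressor (0.81 ± 0.04), and LOX4, a lipoxygenase (0.46 ± 0.03).

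In the ethylene and defensin list, 6 genes were higher and 13 lower of 22, and its median sign depended on the scaling (0.06 with library totals alone). The list summed to 1234 CPM on average in white, 3435 CPM in green and 1398 CPM in wild-type leaves. PDF1.2, a defensin induced by jasmonate with ethylene, had 30.5, 31.1 and 29.1 CPM in white leaves, against 817, 812 and 802 CPM in green leaves, and all white values were far below all green ones (log2 fold change -4.74 ± 0.04, adjusted p = 2.1e-38). PDF1.2c, PDF1.3 and PDF1.2b, near-identical copies, differed by -5.28 ± 0.05, -4.55 ± 0.05 and -4.23 ± 0.07, and fractional counts make the split between copies uncertain. Wild-type means were 47.05, 19.4 and 12.5 CPM for PDF1.2, PDF1.2c and PDF1.3, nearer the white than the green values. ORA59, the ERF factor that drives PDF1.2, had 5.85, 6.29 and 6.36 CPM in white and 31.0, 28.5 and 30.2 CPM in green leaves, also without overlap (log2 fold change -2.28 ± 0.07, adjusted p = 3.4e-23). PR4, a chitin-binding protein of the same response, was lower, at -2.17 ± 0.03. Ethylene synthesis genes were divided: ACS7 (2.66 ± 0.15) and ACS2 (2.49 ± 0.08), ACC synthases, were higher, and EFE, an ACC oxidase, was lower (-1.16 ± 0.03).

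The GCC box, GCCGCC, is the sequence that ERF factors are known to bind, and the promoter of PDF1.2 is shown because it holds it. Its 250 bases (chr5:17907639-17907888, minus strand, RefSeq TAIR10.1) contain it at -222, in capitals. On either strand GCCGCC was present in 13.6% of promoters in the ethylene and defensin list (3 of 22) and in 1.97% of those of all genes tested. Promoters of the heat shock list held it in 14.3% (3 of 21).
PDF1.2: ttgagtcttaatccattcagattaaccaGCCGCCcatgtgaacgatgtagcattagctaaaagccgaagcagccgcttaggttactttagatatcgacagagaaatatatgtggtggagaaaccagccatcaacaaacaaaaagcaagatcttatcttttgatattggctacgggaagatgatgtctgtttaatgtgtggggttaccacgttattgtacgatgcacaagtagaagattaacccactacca

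Salicylate genes had 12 higher and 10 lower of 26, and their median changed sign with the scaling and with the library left out. PR1, a marker protein of the response, had 40.4, 43.1 and 43.5 CPM in white leaves, against 212, 201 and 193 CPM in green leaves, with no overlap (log2 fold change -2.26 ± 0.04, adjusted p = 2.4e-30), and PR5 (-1.25 ± 0.04) and BGL2, the glucanase PR2 (-0.69 ± 0.04), were lower too. Other members were higher: PBS3, which conjugates isochorismate, by 1.18 ± 0.04, SARD1, a transcription factor, by 1.00 ± 0.04, EDS16, isochorismate synthase, by 0.47 ± 0.05, and ALD1, of pipecolic acid synthesis, by 1.28 ± 0.12. FMO1, the flavin monooxygenase that makes N-hydroxypipecolic acid, had 5.23 ± 0.24 CPM in white and 2.77 ± 0.139 CPM in green leaves (SD, n = 3 each, log2 fold change 0.91 ± 0.11).

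Cold and abscisic acid response genes were lower for 19 of 30 and higher for 7 (median -0.67). COR15A, which protects chloroplast membranes from freezing, had 12.6, 13.4 and 13.7 CPM in white leaves, against 133, 116 and 115 CPM in green leaves, without overlap (log2 fold change -3.19 ± 0.06, adjusted p = 3.3e-30). GolS3, a galactinol synthase of the cold response, differed by -3.96 ± 0.20, GolS2 by -2.90 ± 0.08, and COR413IM1, an inner-envelope protein, by -2.94 ± 0.06. CBF1, the activator of these genes, was lower, at -0.80 ± 0.07. RAB18, a dehydrin of the abscisic acid response, was higher by 1.30 ± 0.05.

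RD29A, listed as LTI78 (AT5G52310), and RD29B, listed as LTI65 (AT5G52300), are neighbours on chromosome 5, in the same orientation, at 21240717 to 21243644 and 21237021 to 21239531 in TAIR10.1, and they moved in opposite directions. RD29A, which responds to cold as well as abscisic acid, had 43.4, 44.2 and 45.2 CPM in white leaves, against 237, 237 and 233 CPM in green leaves, white below green in all libraries (log2 fold change -2.41 ± 0.03, adjusted p = 3.7e-32). RD29B, which responds mainly to abscisic acid, had 7.66, 7.41 and 6.81 CPM in white leaves, against 1.19, 1.11 and 1.15 CPM in green leaves, white above green in all libraries (log2 fold change 2.66 ± 0.13, adjusted p = 8.4e-18). Means in green-white and wild-type leaves were 232 and 70.7 CPM for RD29A and 3.30 and 0.743 CPM for RD29B.

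Their promoters, and that of COR15A, are shown because they differ in the motifs they hold. Each is the 250 bases before the annotated start, in the direction of the gene, from RefSeq TAIR10.1: LTI78 (chr5:21240467-21240716, plus strand), LTI65 (chr5:21236771-21237020, plus strand) and COR15A (chr2:17712331-17712580, minus strand). Capitals mark CCGAC, the core bound by CBF factors, and ACGTGGC, a form of the abscisic acid response element, on either strand. LTI78 holds CCGAC at -140, -90 and -33, COR15A at -142 (read as GTCGG) and -79, and LTI65 at -136. LTI65 also holds ACGTGGC at -63 (read as GCCACGT) and -38. On either strand CCGAC was present in 20.0% of promoters of the cold and abscisic acid list (6 of 30) and 13% of those of all genes tested. ACGTGGC was present in 10% of promoters of the list (3 of 30) and 4.00% of those of all genes tested. Both were more frequent in some other lists. CCGAC was in 34.8% of plastid transcription promoters (8 of 23), and ACGTGGC in 35.3% of clock promoters (6 of 17). The G box, CACGTG, is not marked here, and the COR15A sequence also holds it. It was in 30% of promoters of the cold and abscisic acid list (9 of 30), against 7.49% over all genes tested.
LTI78: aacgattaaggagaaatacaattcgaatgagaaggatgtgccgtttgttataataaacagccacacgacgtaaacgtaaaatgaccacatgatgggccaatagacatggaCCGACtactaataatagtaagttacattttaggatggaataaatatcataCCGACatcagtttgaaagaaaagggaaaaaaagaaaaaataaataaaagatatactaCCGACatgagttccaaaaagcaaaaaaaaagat
LTI65: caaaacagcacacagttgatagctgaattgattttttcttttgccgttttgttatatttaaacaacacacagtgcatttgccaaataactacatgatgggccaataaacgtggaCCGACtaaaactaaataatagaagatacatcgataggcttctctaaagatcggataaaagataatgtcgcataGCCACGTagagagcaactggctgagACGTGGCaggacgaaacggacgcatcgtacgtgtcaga
COR15A: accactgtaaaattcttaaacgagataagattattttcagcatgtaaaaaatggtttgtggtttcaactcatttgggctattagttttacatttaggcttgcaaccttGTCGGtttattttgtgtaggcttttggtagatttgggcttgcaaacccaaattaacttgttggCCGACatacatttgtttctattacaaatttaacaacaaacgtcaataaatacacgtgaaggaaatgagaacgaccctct

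Glutathione transferases, which conjugate glutathione to reactive compounds, were lower for 16 of 28 and higher for 5 (median -0.31). GSTU25 had 0.139, 0.315 and 0.278 CPM in white and 6.90, 7.33 and 7.09 CPM in green leaves, with no overlap (log2 fold change -4.84 ± 0.20, adjusted p = 3.0e-20), and GSTU20, which binds the jasmonate enzyme JAR1, had 22.0, 24.2 and 24.7 CPM in white and 154, 142 and 144 CPM in green leaves, again separated (log2 fold change -2.63 ± 0.05, adjusted p = 9.8e-30). The mean of GSTU25 in wild-type leaves was 0.124 CPM. GSTF10 was lower, at -1.62 ± 0.03, and GSTU11 was higher by 1.55 ± 0.13.

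Genes of mitochondrial retrograde signalling and of the alternative respiratory pathways had 9 higher and 7 lower of 19. That is 47.4% and 36.8%, against 36.3% each way over all genes tested. AOX1A, the main alternative oxidase, had 201, 196 and 194 CPM in white and 134, 132 and 132 CPM in green leaves, without overlap (log2 fold change 0.57 ± 0.03, adjusted p = 1.8e-17), and AOX1D was higher by 0.92 ± 0.05. UGT74E2, an auxin glucosyltransferase of oxidative stress, was higher by 1.39 ± 0.05, and AT2G21640, annotated as a marker of oxidative stress response, by 1.43 ± 0.07. NAC13, a factor that carries this signal to the nucleus, was higher by 0.89 ± 0.05. NDA1, a light-induced NADH dehydrogenase that holds FAD, was lower, with 40.8 ± 0.571 CPM in white and 86.0 ± 3.61 CPM in green leaves (SD, n = 3 each, log2 fold change -1.07 ± 0.04).

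Heat shock genes had 6 higher and 7 lower of 21, with a median near 0 whose sign changed with the library left out. HSFA2, a heat stress factor, was higher by 1.15 ± 0.10, and HSP70 by 0.67 ± 0.04, while the small heat shock gene HSP17.6II was lower, at -1.40 ± 0.21.

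Anthocyanin and flavonoid genes were lower for 14 of 20 and higher for 3 (median -0.79). DFR, dihydroflavonol reductase, had 2.79, 2.87 and 2.75 CPM in white and 17.7, 17.5 and 16.4 CPM in green leaves, without overlap (log2 fold change -2.62 ± 0.08, adjusted p = 4.4e-23), and LDOX, the next enzyme, had 1.39, 1.15 and 1.11 CPM in white and 6.53, 6.10 and 6.27 CPM in green leaves (log2 fold change -2.37 ± 0.14, adjusted p = 4.6e-16). PAP1, the MYB activator of both, had 1.83 ± 0.292 CPM in white and 7.36 ± 0.741 CPM in green leaves (SD, n = 3 each), and TT4, chalcone synthase, differed by -1.66 ± 0.05. F3H was higher by 0.36 ± 0.06.

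Clock genes were higher for 8 of 17 (47.1%) and lower for 7 (41.2%), against 36.3% each way over all genes tested. LHY (-1.52 ± 0.06) and CCA1 (-0.61 ± 0.04), which peak at dawn, were lower, and TOC1 (0.69 ± 0.03), GI (0.57 ± 0.04) and PRR5 (0.45 ± 0.03), which peak later in the day, were higher. Time of harvest per leaf class is not given in the sources used here, and its part in these values was not tested.

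Photoreceptor and photolyase genes, several of which encode flavoproteins, were higher for 6 of 11 and lower for 5, and higher for 10 and lower for 0 with library totals alone. UVR3, the photolyase that repairs ultraviolet photoproducts with FAD, had 18.4 ± 0.661 CPM in white and 2.67 ± 0.289 CPM in green leaves (SD, n = 3 each), fully separated (log2 fold change 2.78 ± 0.09, adjusted p = 6.6e-23). CRY3, a plastid and mitochondrial cryptochrome, was higher by 0.82 ± 0.08, and PHYA, the far-red receptor, by 0.62 ± 0.03. The blue-light receptors PHOT2 (-0.26 ± 0.03) and CRY1 (-0.16 ± 0.03) were slightly lower, which turns to 0.02 and 0.12 with library totals alone. CIB1, a cryptochrome-interacting factor, was listed at 0 in all 3 white libraries and stood at 8.63, 9.38 and 9.14 CPM in green ones. Against a floor of 3 counts per library this is at least 86.6-fold lower in white leaves, and CIB1 overlaps another gene and holds fractional counts.

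Genes that loosen and remodel the wall had 8 higher and 13 lower of 27 (median sign dependent on scaling, 0.11 with library totals alone). These shares are 30% and 48%, against 36.3% each way over all genes tested. XTH31, an enzyme that cuts xyloglucan, had 1.11, 1.36 and 1.35 CPM in white leaves, against 53.9, 55.6 and 51.3 CPM in green leaves, white far below green in all libraries (log2 fold change -5.38 ± 0.08, adjusted p = 1.9e-31). EXPA8, an expansin of growing leaves, differed by -2.53 ± 0.04, EXPA11 by -2.28 ± 0.06, and EXPA1 by -1.45 ± 0.03. TCH4, a touch-induced xyloglucan enzyme, had 1070, 1092 and 1076 CPM in white and 372, 359.8 and 364 CPM in green leaves, white above green (log2 fold change 1.56 ± 0.03, adjusted p = 7.9e-30), and XTH24 (1.90 ± 0.03) and XTH25 (2.53 ± 0.05) were also higher.

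Cell division genes had low levels in both leaf classes. In white leaves 11 of 25 (44%) were lower and 2 (8%) higher (median -0.29), against 36.3% each way over all genes tested. Library totals alone gave 5 lower and 6 higher. MCM2, a subunit of the replication helicase, had 2.37, 1.75 and 2.85 CPM in white and 5.38, 5.28 and 5.12 CPM in green leaves, without overlap (log2 fold change -1.18 ± 0.14, adjusted p = 4.3e-09), and MCM4 differed by -1.01 ± 0.12. Among genes of DNA damage and cell cycle arrest, 4 were higher and 4 lower of 10, close to the share over all genes tested. NAC044, a factor that stops the cycle after DNA damage, had 3.31, 2.97 and 3.27 CPM in white and 0.616, 0.614 and 0.574 CPM in green leaves, separated but low (log2 fold change 2.39 ± 0.18, adjusted p = 3.2e-13). PARP2, which marks broken DNA, was higher by 1.42 ± 0.11, and SMR7, a kinase inhibitor of the same response, by 1.59 ± 0.43. SMR5, another inhibitor, was listed at 0 in white libraries and present at a low level in green ones, at least 4.84-fold lower in white leaves, with fractional counts and an overlap with another gene.

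Seed storage and late embryogenesis genes were higher for 16 of 16 tested, of 20 in the list. Of these 16, 6 had 0 counts in all green libraries. CRA1 and SESA2 had 1 count each and SESA5 had 2 over the green libraries together. Such genes passed the filter through another group and could hardly have come out lower. The list median was 6.10 as fitted and 4.05 with the genes absent from green libraries placed at their lower bound. Summed over the list, white libraries held 112 to 119 CPM and green libraries 7.85 to 8.48 CPM. CRU3, a cruciferin, had 15.6, 16.6 and 16.8 CPM in white leaves and was listed at 0 in all green libraries, at least 133-fold higher. SESA3, a 2S albumin, had 7.07, 8.67 and 9.14 CPM in white leaves and 0 in green ones, at least 67.4-fold higher. CRA1, another cruciferin, had 9.44, 9.44 and 10.6 CPM in white leaves against 1 count in all green libraries together, a ratio of 720 with a 95% counting interval of 129 to 28450. PAP85, a cupin of the vicilin kind that the list does not hold, had 17.8, 18.4 and 17.4 CPM in white leaves, 653 times the green level with a counting interval of 181 to 5399.

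OLEO1, the oleosin of seed oil bodies, had 2.58, 2.76 and 2.75 CPM in white leaves and 0 in green ones, at least 21.9-fold higher. Of the late embryogenesis genes, LEA7 had 29.9, 31.7 and 29.9 CPM in white leaves, against 2.34, 2.62 and 2.38 CPM in green leaves, and M17 had 23.8, 26.6 and 25.7 CPM in white leaves, against 1.40, 1.31 and 0.861 CPM in green leaves, both without overlap (log2 fold changes 3.64 ± 0.08 and 4.41 ± 0.11). FUS3, a master regulator of seed maturation, had 1.27 ± 0.346 CPM in white and 0.26 ± 0.0627 CPM in green leaves (SD, n = 3 each, log2 fold change 2.27 ± 0.34), whereas ABI3 and LEC2, regulators of the same kind, were too low to test. Green-white leaves held 0.234 CPM of CRU3 on average and wild-type leaves 0.193 CPM, and for CRA1 the means were 0.175 and 0.22 CPM. The part of other tissue in these values was not tested.

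The promoter of SESA3 (250 bases, chr4:13611546-13611795, plus strand, RefSeq TAIR10.1) is shown for the G box it holds, a motif known from seed storage genes. Capitals mark CACGTG, the G box, at -67. This palindrome was present in 56.2% of promoters of seed genes (9 of 16 tested) and in 7.49% of those of all genes tested. Other lists held it often too, at 35.3% for clock genes (6 of 17) and 30% for cold and abscisic acid genes (9 of 30). Promoters of genes called at least 4-fold higher in white leaves held it in 11.9%, and those at least 4-fold lower in 10.1%.
SESA3: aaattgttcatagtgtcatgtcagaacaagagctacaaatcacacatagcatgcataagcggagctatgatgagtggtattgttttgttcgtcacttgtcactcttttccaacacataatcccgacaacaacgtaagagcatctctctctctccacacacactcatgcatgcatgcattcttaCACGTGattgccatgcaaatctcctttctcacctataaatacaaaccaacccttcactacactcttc

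Flower and floral transition genes were higher for 7 of 10 and lower for 2 (median 1.77). SEP1 (AT5G15800), a MADS-box factor of flower organs, had 9.16, 8.07 and 9.04 CPM in white leaves, against 0.945, 0.942 and 0.861 CPM in green leaves, with no overlap (log2 fold change 3.25 ± 0.13, adjusted p = 4.2e-20), and SEP2 (AT3G02310) had 1.53, 1.57 and 1.77 CPM in white and 0.0822, 0.123 and 0.164 CPM in green leaves (log2 fold change 3.67 ± 0.33, adjusted p = 2.3e-11). AGL8, the FRUITFULL gene of fruits and of leaves at flowering, had 27.6, 28.6 and 27.6 CPM in white leaves, against 7.03, 7.17 and 6.72 CPM in green leaves, white above green throughout (log2 fold change 2.00 ± 0.07, adjusted p = 2.2e-22). PI and SEP3, of petals and stamens, differed by 1.94 ± 0.15 and 2.40 ± 0.18, at low levels, and AG, of stamens and carpels, was not called (log2 fold change -0.06 ± 0.28, adjusted p = 0.85). FT, the flowering signal made in the phloem of leaves, went the other way with 1.18, 1.08 and 1.29 CPM in white and 9.62, 10.1 and 10.1 CPM in green leaves, white below green (log2 fold change -3.06 ± 0.12, adjusted p = 9.5e-21). LFY, which gives the floral meristem its identity, was too low to test.

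**Figure D4:**
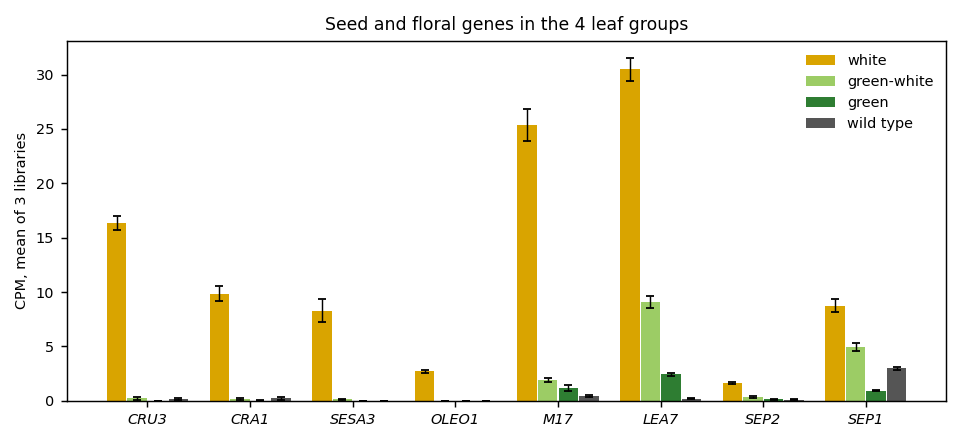
Bars give mean CPM (vertical axis, from 0) in white, green-white and green leaves of melinoe and in wild-type leaves, whiskers the SD and n = 3 libraries each, for CRU3, CRA1, SESA3, OLEO1, M17, LEA7, SEP2 and SEP1. White leaves had the highest mean of the 4 groups for CRU3, CRA1, SESA3 and OLEO1, and green leaves were at or near 0 for these 4 genes.

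Markers of other organs and cell types were examined as well. Shoot meristem markers were near 0 in green leaves and low in white ones, 1.18 to 1.57 CPM in white and 0.0411 to 0.205 CPM in green libraries over the 4 genes. KNAT1 differed by 2.78 ± 0.49, STM was higher by a ratio of 9.35 with a 95% counting interval of 2.93 to 47.6, and CLV3 was at 0 in green libraries and at least 3.12-fold higher. WUS was at 0 in all green libraries and in 2 of 3 white ones. Root markers were mixed (1 higher and 1 lower of 2 tested), and the root hair gene SHV2 was near 0 in both. Guard cell genes were lower for 4 of 7 (KAT1, a potassium channel, -1.27 ± 0.08) and phloem and cambium genes for 4 of 6 (SEOR1, a sieve element protein, -0.92 ± 0.08). The 1 higher gene of the latter list was PXY of the cambium (log2 fold change 0.21 ± 0.09, adjusted p = 0.032). That call was lost with upper-quartile scaling, in DESeq2 and without some libraries. Xylem genes were higher for 5 of 13 (38.5%) and lower for 1, and epidermal and trichome genes were higher for 2 of 7 (28.6%) and lower for 1. Over all genes tested, 36.3% were higher and 36.3% lower, and these lists are small. The part of these cell types in the other results was not tested.

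Cuticle genes had 7 higher and 7 lower of 16, or 43.75% each way against 36.3% over all genes tested. CER1, which makes the alkanes of leaf wax, had 236, 235 and 242 CPM in white leaves, against 63.9, 65.8 and 64.3 CPM in green leaves, with white above green in all libraries (log2 fold change 1.88 ± 0.03, adjusted p = 3.2e-30). CYP96A15, which oxidises alkanes and is known from stem wax, had 1.36, 1.22 and 1.11 CPM in white and 0, 0.0819 and 0.164 CPM in green leaves (log2 fold change 3.83 ± 0.44, adjusted p = 4.4e-09), separated at a low level. WSD1, a wax ester synthase, was higher by 1.66 ± 0.15, and CER2, of wax chain elongation, was lower, at -0.84 ± 0.07.

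Genes of flavin synthesis and turnover, the pathway that the mutation touches, had 7 higher and 3 lower of 13, a share close to the background of 72.6%. FMN/FHY itself had 24.2, 23.9 and 25.2 CPM in white leaves, against 22.7, 21.4 and 22.2 CPM in green leaves, and the difference was small (log2 fold change 0.15 ± 0.05, adjusted p = 0.011). White values were all just above green ones, and the gene overlaps another, AT4G21480, in the annotation. RIBA2, of the first steps from GTP, had 40.2, 40.2 and 40.9 CPM in white and 27.2, 26.9 and 26.4 CPM in green leaves, without overlap (log2 fold change 0.59 ± 0.04, adjusted p = 2.6e-13). RIBA3, a relative of it, was slightly lower (-0.20 ± 0.04, or 0.08 with library totals alone), and GCH, GTP cyclohydrolase II, was not called (log2 fold change 0.06 ± 0.03, adjusted p = 0.11).

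PyrD, the deaminase of the pathway, was higher by 0.19 ± 0.05, PHS1 (AT3G47390), the plant reductase of the next step, by 0.29 ± 0.06, and COS1, lumazine synthase, by 0.16 ± 0.05. AT4G11570, listed as a HAD superfamily hydrolase, was lower, at -0.55 ± 0.03, and AT2G20690, listed as a lumazine-binding protein, was not called (log2 fold change -0.09 ± 0.05, adjusted p = 0.12). The largest differences of this list were those of FHY1 and AT5G23330. FHY1 (AT1G79790), an FMN hydrolase of the HAD family, had 21.4, 20.4 and 20.1 CPM in white leaves, against 56.0, 56.3 and 53.0 CPM in green leaves, white below green in all libraries (log2 fold change -1.42 ± 0.05, adjusted p = 4.2e-23), and it overlaps a neighbour. AT5G23330, listed as a nucleotidylyl transferase, had 28.8, 28.7 and 29.2 CPM in white leaves, against 14.3, 14.1 and 13.7 CPM in green leaves, white above green in all libraries (log2 fold change 1.04 ± 0.06, adjusted p = 4.5e-17), while its relative AT5G08340 was not called (log2 fold change 0.12 ± 0.09, adjusted p = 0.23). NUDX23, a hydrolase that cleaves FAD, was slightly higher, with overlapping libraries (log2 fold change 0.12 ± 0.05, adjusted p = 0.038).

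Several further genes completed the 12 highest and 12 lowest among named genes of at least 5 CPM in the higher leaf class. EPR1, an extensin-like protein known from germinating endosperm, had 5.64, 6.01 and 6.88 CPM in white leaves and 0 in green ones, at least 50.2-fold higher. GLYI4 had 111, 115 and 118 CPM in white and 3.82, 3.03 and 2.87 CPM in green leaves and GLYI7 122, 116 and 119 CPM in white and 6.49, 6.84 and 4.39 CPM in green leaves, both glyoxalase I family proteins, without overlap (log2 fold changes 5.14 ± 0.06 and 4.33 ± 0.07). MIOX2, myo-inositol oxygenase, had 41.6, 41.8 and 42.6 CPM in white and 2.59, 2.17 and 2.21 CPM in green leaves, also separated (log2 fold change 4.17 ± 0.08, adjusted p = 1.5e-29). UMAMIT33, of a family of amino acid exporters, was higher by 4.58 ± 0.09, and VIM4, a RING finger protein of DNA methylation, by 4.82 ± 0.22, both with fractional counts.

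Lowest in white leaves, beside the genes already named, were AACT1, an anthocyanin acyltransferase homologue with 1.95, 2.45 and 1.88 CPM in white and 82.4, 78.8 and 79.1 CPM in green leaves, and NATA1, an acetyltransferase of the jasmonate response with 2.23, 1.99 and 2.33 CPM in white and 46.3, 46.9 and 45.1 CPM in green leaves. White libraries lay below green ones for both (log2 fold changes -5.26 ± 0.07 and -4.40 ± 0.07). Prx37, a cell wall peroxidase, differed by -4.71 ± 0.20, and MES18, a methyl esterase, by -4.92 ± 0.12, the last overlapping another gene. Wild-type means were 14.9 CPM for AACT1, 20.7 CPM for NATA1, 0.564 CPM for Prx37 and 16.7 CPM for MES18.

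Antenna and rubisco activase mRNAs remained abundant in white leaves. CAB1, an antenna gene with fractional counts, had 9702, 9888 and 9260 CPM in white leaves, against 32394, 33137 and 30713 CPM in green leaves, and RCA, rubisco activase, had 5434, 5539 and 5328 CPM in white leaves, against 11486, 11574 and 10569 CPM in green leaves. White libraries lay below green ones for both, at log2 fold changes of -1.74 ± 0.03 and -1.04 ± 0.03.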

How the data were processed

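Strand-specific poly(A) libraries of rosette leaf RNA were read on the DNBSEQ platform, per the labels and the series design. The design text gives SOAPnuke 1.5.2 for read filtering and HISAT2 2.0.4 for alignment, with TAIR10 as the genome. Bowtie2, RSEM and DESeq2 appear in the submitters' processing notes without a version. No source used here states the annotation or the strand setting of the counting. The deposited estimated counts, headed Read Count per the file headers, are whole for 92.71% of values, and fractions arise where reads are shared between similar genes. The columns of TPM were left out, so that each library entered with a single measure. The rule that would name genes by TPM was not applied.

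Counts of the 3 deposited tables were joined on the gene identifier, 9750 absent values were set to 0, and counts were rounded. All 12 libraries in 4 groups were fitted with edgeR 4.0.16 in R 4.3.3 (TMM factors, filterByExpr, quasi-likelihood, 8 residual degrees of freedom), and white was contrasted with green. Calls were made at an adjusted p (Benjamini-Hochberg) below 0.05. Counting intervals and the floor of 3 counts per library cover counting error only. All replicate pairs differed by more than sampling noise (1.57 to 3.82 chi-square units per gene). Beyond counting error, the common coefficient of variation between libraries of a group was only 0.027. The script was tested on simulated data. DESeq2 1.42.0, other scalings and the other settings were alternatives. Sums over the 48 lists add the CPM of their members, in place of the TPM first planned.

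The lists (969 distinct genes, 924 tested) and the comparison were chosen with earlier results of these data known. The naming rule took the 12 highest and 12 lowest called genes with a symbol, no overlap of libraries and at least 5 CPM in the higher leaf class. It also took the 4 largest called members of each list in its main direction and 2 in the other, all flavin genes, and members that complete a role. Not all genes it selected are given. The heat shock, phloem and cambium, and myrosinase lists reach -1.58, -2.03 and -1.68 in members left out here. Symbols and coordinates come from RefSeq TAIR10.1, which matched all 25169 identifiers. Of 310 genes given with values, 28 have fractional counts and 59 overlap another annotated gene, so part of their reads may belong to a copy or neighbour. Fractional counts concern MCCA, SMR5, BCAT-2, DHAR1, CAB1, VIM4, RBCS1A, SARD1, GLYI7, SCA3, PDF1.3, PDF1.2b, LHB1B1, GOX2, GOX1, AOC1, AOC2, bHLH38, GUN4, UMAMIT33, CIB1, AT5G08340, SIG4, RBCS3B, RBCS2B, RBCS1B, PDF1.2 and PDF1.2c. Overlaps concern MCCA, SMR5, CSD1, BCAT-2, LHCB6, TMT1, CAB1, NAC13, OHP2, Lhca5, ETFALPHA, APR2, SARD1, FHY1, AT2G20690, GSTF10, PTAC12, RCA, FER4, NUDX23, ETFQO, TRX z, FER2, DIN4, FLU, GOX1, P5CS2, CRD1, bHLH38, GUN4, APR1, ATSPS4F, FMN/FHY, APR3, CER2, NBR1, OLEO1, PORB, UMAMIT33, CIB1, BHLH101, TOC34, AT5G08340, DiT1, SIG4, TT4, FTSH6, SEP1, PSY, DIN10, YSL2, FC1, VAR1, ETFBETA, BETA-OHASE 2, LHCB3, MES18, RIBA3 and RAB18.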

Additional observations from a re-analysis of the deposited data

How the results depend on the processing

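Directions and calls were compared with upper-quartile and RLE scaling, library totals alone, no low-count filter, DESeq2, a fit of the 6 white and green libraries alone, each library left out and a test against a 1.5-fold change. The number of genes called, 14094, was 13071 with DESeq2 and 15044 with library totals alone, and 13540 to 13705 when a library was left out. A test against a 1.5-fold change called 4382 genes, 2014 higher and 2368 lower, and 431 of the listed genes, against 800 listed genes in the main comparison. Library totals alone gave 11056 genes higher and 3988 lower, with 2242 at least 2-fold higher and 1130 at least 2-fold lower. Calls that changed sign numbered 1518 and did so only with library totals alone, the largest having a log2 fold change of 0.28 in size. Named genes that turned to higher there were ETFALPHA (0.0323), PHOT2 (0.015), CRY1 (0.12), ATML1 (0.153), AGL20 (0.146) and RIBA3 (0.0811). List medians that turned positive there were those of carotenoid (0.151), greening regulator (0.148), plastid ribosome (0.082), nitrogen (0.101), antioxidant (0.14), myrosinase (0.0858), ethylene and defensin (0.0647), wall growth (0.115), epidermis (0.153) and root genes (0.235). The salicylate median was 0.0213 in the main comparison, -0.0144 with upper-quartile scaling and -0.0588 to 0.084 with a library left out, below 0 without white A, white B, green A or green B. The heat shock median was 0.0375 in the main comparison, -0.0507 with the 6 libraries alone and -0.0712 to 0.079 with a library left out, below 0 without white B, green A or green B. Over the genes that the naming rule selected or that are given with values, 62 gene-by-setting results lost and 7 gained their call. Apart from the scalings themselves, the cause of these changes was not tested.

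No paired analysis was possible because the columns carry letters and the labels numbers, and nothing ties them. Deviations of same-lettered libraries correlated at -0.033 to 0.030. Lower limits and ratios of the seed and meristem genes, and of EPR1, are limited by depth in the green libraries. The lower limits of CIB1 and SMR5, at 0 in white leaves, are limited by depth in the white libraries. Sums of deposited TPM were not run, since the TPM columns were not used.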
